A study of Saccharomyces cerevisiae with 8 samples.

Results

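Peroxisomal fatty acid breakdown is represented by 10 genes of the budding yeast Saccharomyces cerevisiae: the transporter gene PXA1, the fatty acid activation genes FAA1 and FAA2, the enzyme genes POX1, FOX2, POT1, ECI1, DCI1 and SPS19, and the regulator gene PIP2. They were found by their gene or open reading frame name, and all 10 were on the array, among 6225 genes. The first group was a deletion strain of HTZ1, the gene of the histone variant H2A.Z, harvested 20 minutes after NaCl was brought to 0.4 M (htz1D with salt), and the second was the same strain left untreated (htz1D without salt). The third group was the wild type with the same salt treatment (WT with salt) and the fourth the untreated wild type (WT without salt). Each group held 2 cultures, which the design text calls biological replicates. All 8 cultures carried the strain name BY4147 in the labels and were grown in YPD, a rich glucose medium, and the sources used here do not say whether the deletion strain was a single isolate. RNA of each culture was measured on 1 single-colour oligonucleotide array, so a change in the RNA of every cell cannot be told apart from a larger change in a fraction of the cells.

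In this yeast, fatty acids are broken down in peroxisomes and not in mitochondria. Acyl-CoA synthetases activate the fatty acid, an ABC transporter carries the acyl-CoA into the peroxisome, and an oxidase, a multifunctional enzyme and a thiolase then shorten the chain by repeated rounds, with auxiliary enzymes for unsaturated chains. The genes are known to be repressed during growth on glucose and induced on oleate, when the transcription factors Oaf1 and Pip2 act together at their promoters with Adr1.

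Levels are given below as a percentage of each array's 75th percentile, taken over all non-control spots. That percentile lay between 2740 and 4290 intensity units, and the scanner software called 82.2 to 88.9% of spots well above background. HTZ1 had 0.456 and 0.554% in htz1D with salt and 0.652 and 0.823% in htz1D without salt, none well above background, against 213 and 197% in WT with salt and 254 and 244% in WT without salt. The deletion was therefore visible on all 4 arrays labelled with it. Replicate arrays correlated at r = 0.987 to 0.993 over all genes tested. All arrays shared a slide on which the strains lay in different rows and the treatments in different columns, so position and group cannot be told apart. The small number of arrays limits the precision. Genes entered the test when both arrays of 1 or more groups were well above background, which left 5394 genes, and a call is an adjusted p under 0.05 in a limma fit over all 8 arrays with Benjamini-Hochberg adjustment over those genes.

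The first question was how the genes responded to salt in each strain. In htz1D, 9 of the 9 members tested were higher with salt, where 29.3% of all genes tested were higher and 58.4% changed in either direction. Of the 9 members, 8 were higher in the wild type, where 31.2% of all genes were higher, 25.7% were lower and 56.9% changed. Among the members that passed and were measured in both groups compared, the sizes ran between 1.45-fold for FAA2 and 3.64-fold for ECI1 in htz1D. In the wild type they ran between 1.65-fold for PIP2 and 3.21-fold for ECI1, and DCI1, which did not pass there, was at 1.60-fold. PXA1, POT1 and DCI1 entered the test only through the salt-treated groups, and for them a higher level with salt follows in part from the filter. Among the other 6 members tested, 6 were higher with salt in htz1D and 6 in the wild type. Members with only a bound were placed at it, and DCI1 in htz1D, which has no bound above 1, was placed at 0. The median log2 change of the 9 members was then 0.65 in htz1D and 1.05 in the wild type. Values so placed numbered 3 in htz1D and 1 in the wild type, so these medians do not compare the strains. The fitted medians, which include levels below background, were 1.51 in htz1D and 1.05 in the wild type. Over the other 6 members the median was 0.73 in htz1D and 1.13 in the wild type. Over all genes tested the median was 0.01 in htz1D and 0.07 in the wild type. The counts fell to 2 members in htz1D and 4 in the wild type with normexp background correction from the local background, where FAA2, PXA1 and DCI1 also turned in htz1D without passing, and to 5 in htz1D with a common floor for dim values.

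**Figure D1:**
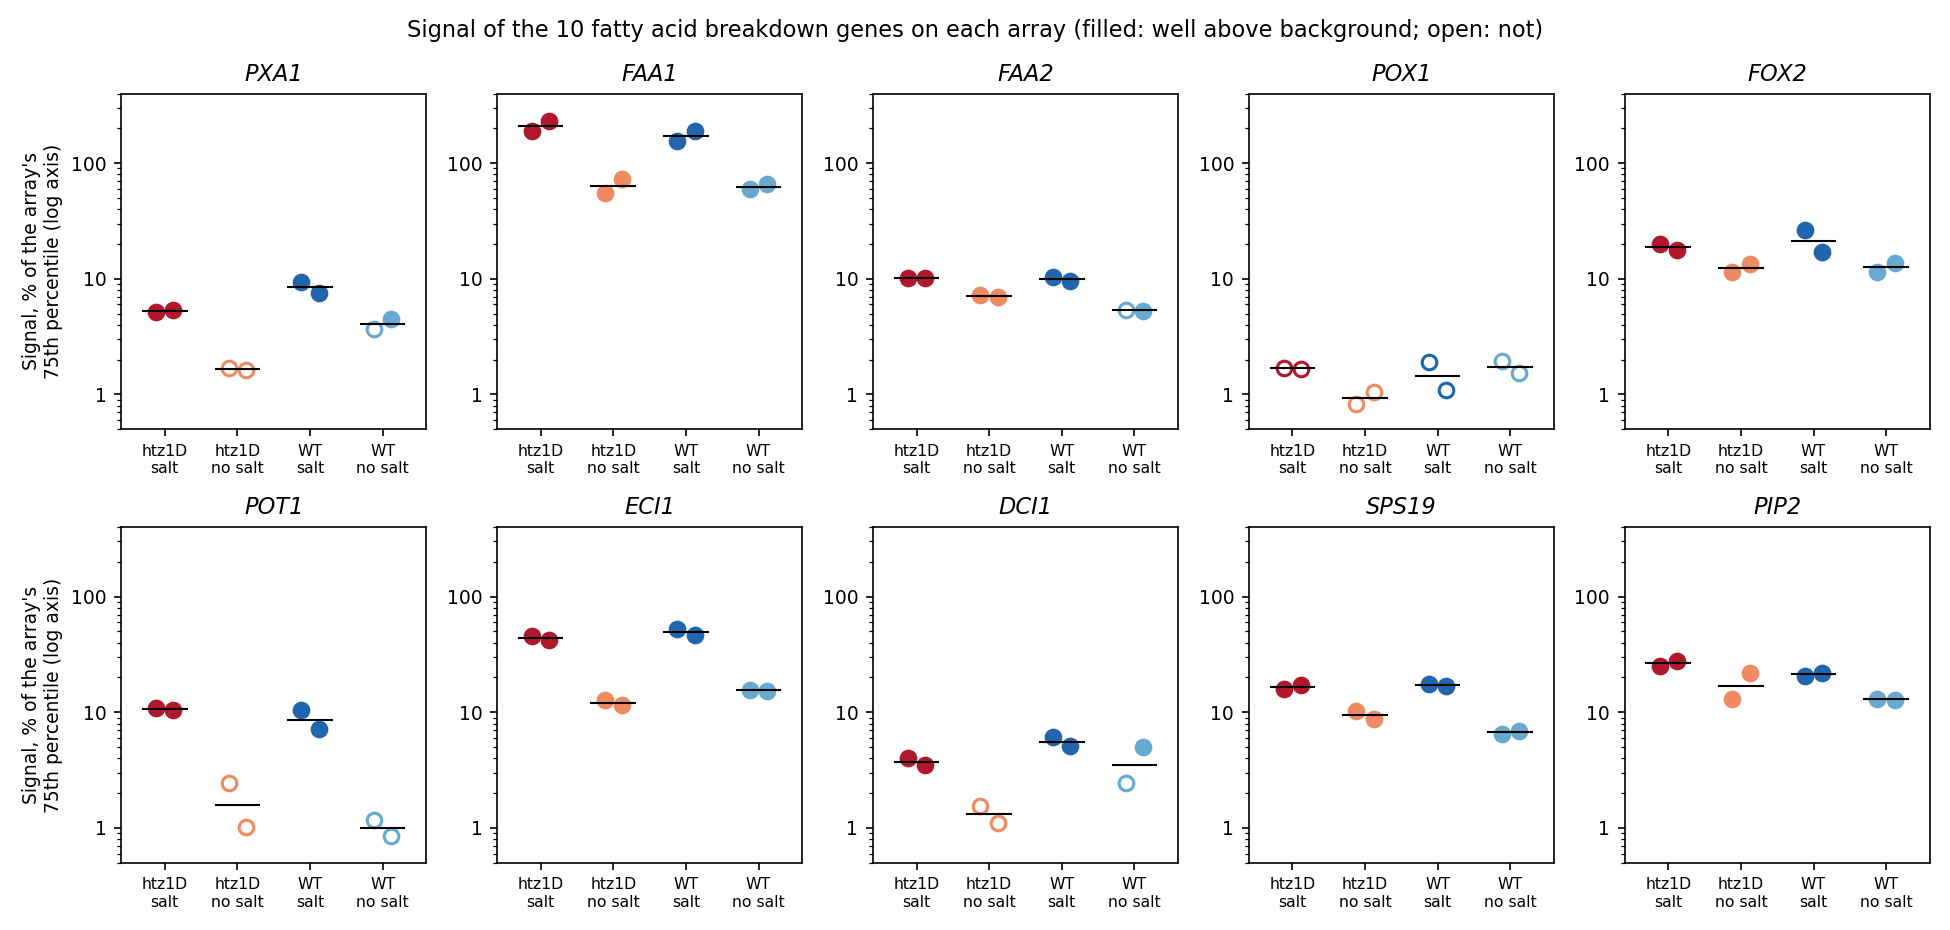
Signal of each of the 10 genes on each array, as a percentage of the array's 75th percentile on a log axis, with the htz1D groups left of the WT groups and salt left of no salt in each strain. Points are single arrays (2 per group), open points are not well above background, and lines are means on the log scale. FAA1, ECI1 and SPS19 stand higher on every salt-treated array than on any untreated array of either strain, and POX1 is open on all 8 arrays.

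The transporter and activation genes came first in the pathway. PXA1 encodes a subunit of the ABC transporter that carries long-chain acyl-CoA into the peroxisome. It had 5.19 and 5.37% in htz1D with salt, 1.70 and 1.62% in htz1D without salt, 9.41 and 7.59% in WT with salt, and 3.69 and 4.52% in WT without salt. All salt-treated arrays lay above all untreated arrays, and both htz1D groups lay below their wild-type counterparts. In htz1D without salt neither array was well above background, so the salt response there has only a bound, at least 1.39-fold higher. The limma adjusted p of 6.64e-05 belongs to the fitted change, which includes levels below background. This bound depends on the processing. In the authors' deposited value table the htz1D change was log2 0.375, less than the bound, and with normexp it was log2 -0.28 without passing. PXA1 was 2.07-fold higher with salt in the wild type (log2 1.05, SE 0.15, adjusted p = 0.000802), where 1 of the 2 untreated arrays was not well above background.

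FAA1 encodes a main long-chain acyl-CoA synthetase, which activates fatty acids taken up by the cell. Its level was 191 and 233% in htz1D with salt, 55.7 and 73.3% in htz1D without salt, 156 and 189% in WT with salt, and 59.6 and 65.5% in WT without salt. The treated and untreated arrays were far apart in both strains, and the untreated arrays of the strains overlapped. FAA1 was 3.30-fold higher with salt in htz1D (log2 1.72, SE 0.18, limma adjusted p = 0.000149) and 2.75-fold higher in the wild type (log2 1.46, SE 0.18, adjusted p = 0.000401). It passed in both strains under each of the 16 alternative settings tried.

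FAA2 encodes the acyl-CoA synthetase of the peroxisome itself, which activates medium-chain fatty acids. It had 10.2 and 10.2% in htz1D with salt, 7.20 and 6.91% in htz1D without salt, 10.3 and 9.63% in WT with salt, and 5.40 and 5.26% in WT without salt. With salt the strains overlapped, and without salt htz1D stood above the wild type on both arrays. The salt increase was 1.45-fold in htz1D (log2 0.53, SE 0.10, limma adjusted p = 0.00322) and 1.87-fold in the wild type (log2 0.90, SE 0.10, adjusted p = 0.000258). On 1 untreated wild-type array only 1 of the 2 FAA2 spots was well above background.

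The core enzymes of the spiral differed in how well they were measured. POX1 encodes the acyl-CoA oxidase that catalyses the first step and produces hydrogen peroxide. Its probe was not well above background on any array, with 1.69 and 1.68% in htz1D with salt, 0.827 and 1.06% in htz1D without salt, 1.89 and 1.10% in WT with salt, and 1.96 and 1.53% in WT without salt. On the same scale the median negative control spot lay at 0.5105 to 1.078% per array, and POX1 was above it on each of the 8 arrays. POX1 was not tested, no fold is given for it, and its response was not measurable on these arrays.

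FOX2 encodes the multifunctional enzyme with the hydratase and dehydrogenase steps. It had 20.1 and 17.6% in htz1D with salt, 11.5 and 13.4% in htz1D without salt, 26.3 and 17.1% in WT with salt, and 11.5 and 13.7% in WT without salt. The salt-treated arrays were higher without overlap, but the treated wild-type arrays were far from each other. FOX2 was 1.52-fold higher with salt in htz1D (log2 0.60, SE 0.22, limma adjusted p = 0.0449) and 1.69-fold higher in the wild type (log2 0.75, SE 0.22, adjusted p = 0.0198). Both calls were close to the threshold. In htz1D the call was lost without any 1 of 6 arrays, with adjusted p between 0.0555 and 0.182. In the wild type it was lost without the first untreated wild-type array (log2 0.63, adjusted p = 0.105) or without the first salt-treated one (log2 0.44, adjusted p = 0.100). It was also lost with normexp (log2 0.58, adjusted p = 0.223), after quantile normalization (log2 0.58, adjusted p = 0.0513) and in the authors' deposited value table (log2 0.30, adjusted p = 0.0732).

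POT1 encodes the thiolase that releases acetyl-CoA in the last step of each round. It had 10.9 and 10.52% in htz1D with salt and 10.4 and 7.15% in WT with salt. Without salt it had 2.47 and 1.03% in htz1D and 1.18 and 0.851% in WT. None of the untreated arrays was well above background for POT1, while all the salt-treated arrays were. It was at least 2.82-fold higher with salt in htz1D (limma adjusted p = 0.000736) and at least 2.07-fold higher in the wild type (adjusted p = 0.000442). These bounds depend on the processing. With normexp the htz1D call was lost (adjusted p = 0.768), and over the 16 alternative settings the lowest htz1D change was log2 0.20. In the authors' deposited value table the change was log2 0.81 in htz1D and 0.735 in the wild type, less than the bounds. On the first untreated htz1D array the 2 POT1 spots were 11.2-fold apart.

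The auxiliary enzymes act on unsaturated fatty acids such as oleate, whose double bonds stand in the way of the core enzymes. ECI1 encodes the enoyl-CoA isomerase that moves such a bond. It had 46.1 and 42.1% in htz1D with salt, 12.8 and 11.5% in htz1D without salt, 52.9 and 46.7% in WT with salt, and 15.6 and 15.3% in WT without salt. Treated and untreated arrays were well separated, and within each treatment the htz1D arrays lay just below the wild-type arrays. ECI1 was 3.64-fold higher with salt in htz1D (log2 1.86, SE 0.12, limma adjusted p = 1.47e-05) and 3.21-fold higher in the wild type (log2 1.68, SE 0.12, adjusted p = 2.96e-05). As for FAA1, both calls held under each of the 16 alternative settings.

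DCI1 encodes a relative of Eci1 that has been described as a dienoyl-CoA isomerase. It had 4.01 and 3.50% in htz1D with salt, 1.56 and 1.11% in htz1D without salt, 6.06 and 5.09% in WT with salt, and 2.43 and 4.98% in WT without salt. The untreated htz1D arrays and the first untreated wild-type array were not well above background, and the second untreated wild-type array reached nearly the treated ones. In htz1D the salt difference passed (limma adjusted p = 0.00556), but no fold is given because its bound does not exceed 1. DCI1 did not pass in the wild type (log2 0.68, SE 0.32, adjusted p = 0.113), and without the second untreated array it did (log2 1.19, adjusted p = 0.00754).

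SPS19 encodes the dienoyl-CoA reductase of the peroxisome, which uses NADPH. It had 15.8 and 17.3% in htz1D with salt, 10.2 and 8.77% in htz1D without salt, 17.4 and 16.7% in WT with salt, and 6.48 and 6.95% in WT without salt. As for FAA2, the strains overlapped with salt, and without salt both htz1D arrays were above both wild-type arrays. The increase with salt was 1.74-fold in htz1D (log2 0.80, SE 0.12, limma adjusted p = 0.00102) and 2.55-fold in the wild type (log2 1.35, SE 0.12, adjusted p = 8.57e-05). With normexp the htz1D call was lost (adjusted p = 0.914), and the lowest htz1D change over the 16 alternative settings was log2 0.044.

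PIP2 encodes the oleate-responsive transcription factor that pairs with Oaf1. It had 25.3 and 28.0% in htz1D with salt, 13.03 and 22.1% in htz1D without salt, 20.7 and 22.0% in WT with salt, and 13.1 and 12.8% in WT without salt. The second untreated htz1D array stood at the height of the treated wild-type arrays, while the first lay with the untreated wild type. PIP2 was 1.57-fold higher with salt in htz1D (log2 0.65, SE 0.23, limma adjusted p = 0.0393) and 1.65-fold higher in the wild type (log2 0.72, SE 0.23, adjusted p = 0.0282). Without the first untreated htz1D array the htz1D change was log2 0.27 (adjusted p = 0.115), and the call was also lost without any other 1 array except the second untreated htz1D array (adjusted p 0.0540 to 0.151). In the wild type it was lost without any 1 of the 4 wild-type arrays, with adjusted p between 0.0742 and 0.0991.

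**Figure D2:**
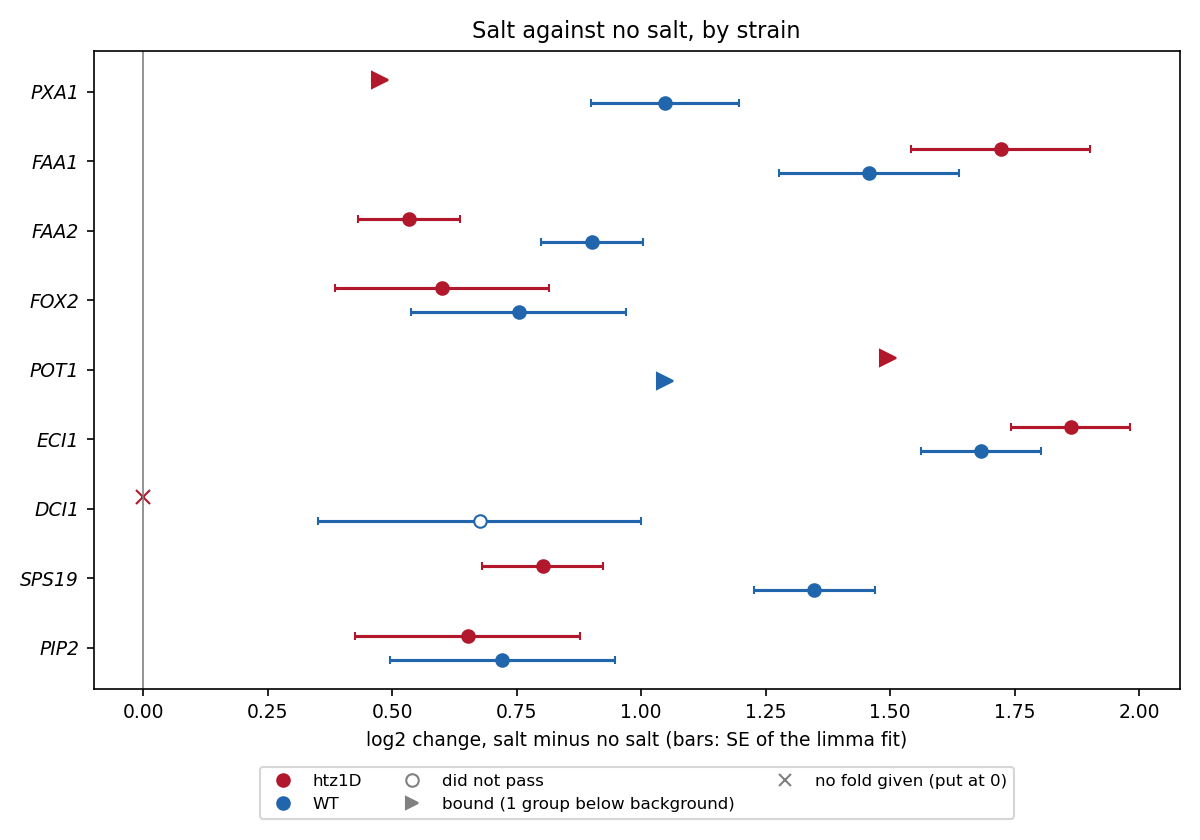
Change with salt of the 9 genes tested, as log2 of salt over no salt, in htz1D (red, upper point of each pair) and WT (blue, lower point), with bars for the SE of the limma fit. Triangles are lower bounds, the open point did not pass, and the cross at 0 stands for DCI1 in htz1D, which has no fold. ECI1 and FAA1 have the largest measured changes, and the points of SPS19 and FAA2 lie further left in htz1D than in WT, a difference that did not pass after adjustment.

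The second question was whether loss of HTZ1 altered the genes in cells without salt. FAA2 and SPS19 were higher in htz1D and PXA1 and DCI1 were lower, so 2 of 9 members were higher where 7.36% of all genes tested were higher, and 2 of 9 were lower where 6.32% were lower. PXA1 and DCI1 entered the test only through the salt-treated groups, so their calls here rest mostly on levels below background. With the common floor for dim values, 2 members were higher and 0 lower. FAA2 was 1.32-fold higher (log2 0.40, SE 0.10, limma adjusted p = 0.0414) and SPS19 1.41-fold higher (log2 0.50, SE 0.12, adjusted p = 0.0374). PXA1 was at least 1.08-fold lower (adjusted p = 0.00273), since neither htz1D array was well above background and only 1 wild-type array was. DCI1 passed as lower (adjusted p = 0.0314) with no fold, and it did not pass without the second untreated wild-type array (adjusted p = 0.0975), the second untreated htz1D array (0.105) or either salt-treated htz1D array (0.0532). None of these 4 calls held with normexp or in the authors' deposited value table, and with normexp PXA1 and DCI1 turned without passing. For FAA2 the call was lost without any 1 of the 8 arrays, with adjusted p between 0.0653 and 0.205. For SPS19 it was lost without any 1 array except the second untreated htz1D array (adjusted p 0.0603 to 0.192).

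The other members did not pass in untreated cells. ECI1 was at log2 -0.35 (SE 0.12, limma adjusted p = 0.0940), with both htz1D arrays below both wild-type arrays. It passed with the replicate number as a block (adjusted p = 0.0301), a setting for which the labels give no pairing. PIP2 was at log2 0.39 (SE 0.23, adjusted p = 0.284), and without the first untreated htz1D array it was at log2 0.77 and passed (adjusted p = 0.0191). FAA1 and FOX2 differed by log2 0.03 (95% interval -0.39 to 0.46) and log2 -0.02 (95% interval -0.52 to 0.49). For POT1 both groups were below background and no fold is given (adjusted p = 0.289, and 0.0376 without the second untreated htz1D array).

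Genes of the general stress response were also different between the untreated strains. Of 7 such genes on a fixed list, 5 were higher in htz1D without salt, where 7.36% of all genes tested were higher. Among the 5 was HSP12, a small heat shock protein gene, with 52.4 ± 7.87% in htz1D against 11.96 ± 1.08% in WT (SD, n = 2 each). All 7 were higher with salt in both strains, where 29.3% of all genes tested were higher in htz1D and 31.2% in WT. The part of these 7 genes in the differences of FAA2 and SPS19 was not tested.

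The third question was the same comparison in salt-treated cells. Here PXA1 was the 1 member of 9 that passed, as lower, where 16.2% of all genes tested were lower, 5.77% were higher and 21.9% changed. In genes these were 872 lower and 311 higher, a split that was 564 and 433 after quantile normalization and 627 and 549 in the authors' deposited value table. PXA1 was 1.60-fold lower in htz1D (log2 -0.68, SE 0.15, limma adjusted p = 0.0195), and both htz1D arrays were below both wild-type arrays. The call was lost with normexp, with quantile normalization (log2 -0.41, adjusted p = 0.0738) and in the authors' deposited value table (log2 -0.165, adjusted p = 0.170). It was also lost without the first salt-treated wild-type array (log2 -0.52, adjusted p = 0.0866) and without either salt-treated htz1D array (adjusted p 0.0805 and 0.0986). DCI1 lay in the same direction without passing (log2 -0.57, SE 0.32, adjusted p = 0.252). FAA2 differed by log2 0.04 (95% interval -0.20 to 0.28) and SPS19 by log2 -0.05 (95% interval -0.34 to 0.24). Without salt the 95% intervals were 0.16 to 0.64 for FAA2 and 0.21 to 0.78 for SPS19, which overlap those with salt. The interaction, given below, did not pass for either gene. FAA1, PIP2 and POT1 were at log2 0.30, 0.32 and 0.31, and ECI1 and FOX2 at log2 -0.17 and -0.17, with adjusted p between 0.280 and 0.610.

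**Figure D3:**
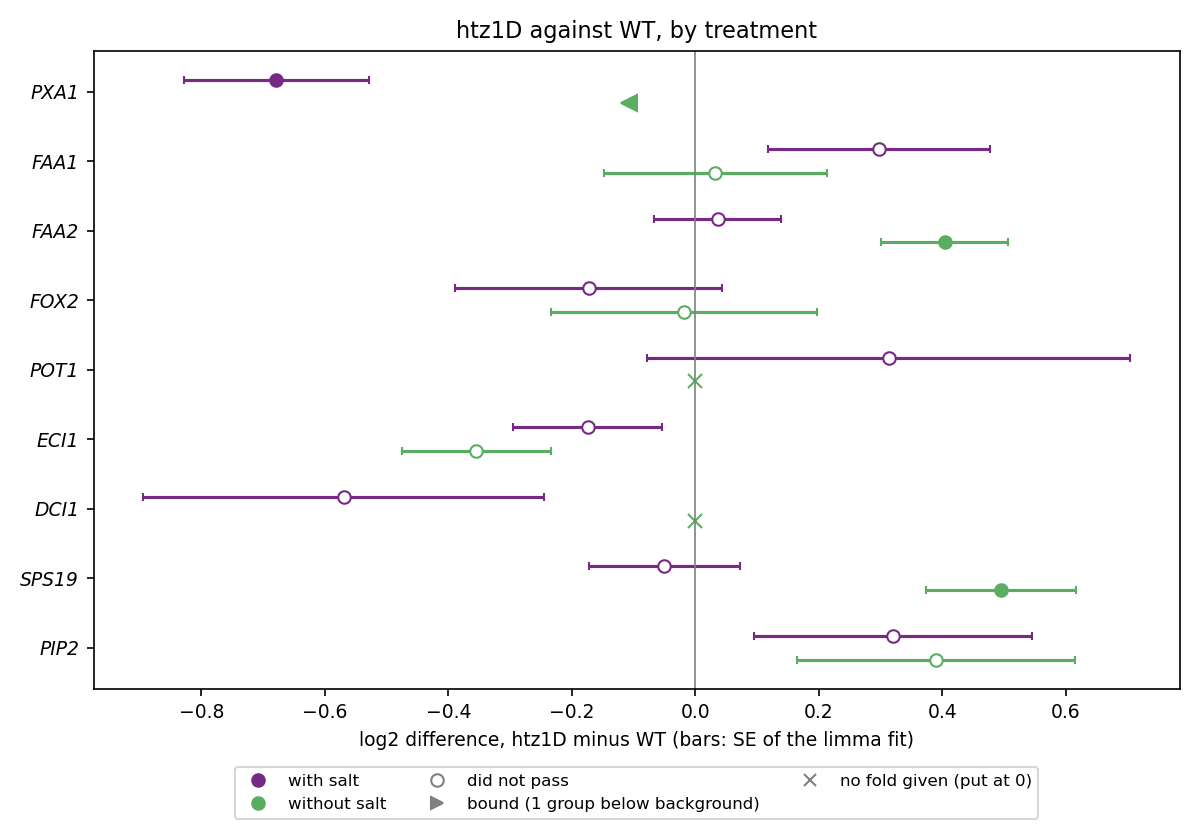
Difference between strains of the 9 genes tested, as log2 of htz1D over WT, with salt (purple, upper point of each pair) and without salt (green, lower point), with bars for the SE of the limma fit. Filled points passed, open points did not, the triangle is a bound, and crosses at 0 have no fold (for DCI1 the test passed as lower, for POT1 both groups were below background). PXA1 passed as lower in htz1D in both treatments, and FAA2 and SPS19 passed as higher without salt.

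The difference between the strains' salt responses was tested directly as an interaction. No member passed in limma after adjustment, while 1.00% of all genes tested did, 0.890% with a negative interaction. SPS19 responded less in htz1D than in the wild type by log2 0.55 units (interaction log2 -0.55, SE 0.17, adjusted p = 0.240), and FAA2 likewise (log2 -0.37, SE 0.14, adjusted p = 0.365). PXA1 lay the other way (log2 0.62, SE 0.21, adjusted p = 0.278), with its untreated htz1D level below background. For FAA1 and ECI1, the members with the largest measured responses, the interaction was log2 0.26 (95% interval -0.33 to 0.86) and log2 0.18 (95% interval -0.22 to 0.58).

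Direct partners of the 10 genes, chosen by role, moved in both directions with salt. The 12 partners included PXA2, CTA1, FAA3, FAA4, OAF1 and ADR1, and of the 11 tested, 6 were higher and 2 lower in htz1D, and 6 were higher and 3 lower in the wild type. That was 72.7% of the tested partners in htz1D, where 58.4% of all genes tested changed, and 81.8% in the wild type, where 56.9% did. Of the partners, PXA2 and CAT2 entered the test only through salt-treated groups. PXA2 encodes the other subunit of the acyl-CoA transporter, and it was at least 1.88-fold higher in htz1D (limma adjusted p = 0.0404) and at least 1.64-fold higher in the wild type (adjusted p = 0.0156). It was not well above background on any untreated array. The htz1D call was lost without either untreated wild-type array, the first untreated htz1D array or the second treated one (adjusted p 0.0533 to 0.209), and with normexp, no filter on dim probes or the common floor (adjusted p = 0.858, 0.0658 and 0.0654). The wild-type call was lost without the second untreated or the first treated wild-type array (adjusted p = 0.0681 and 0.0883), and with normexp, in the authors' deposited value table or with the common floor (adjusted p = 0.357, 0.104 and 0.156). CTA1, the peroxisomal catalase that removes the hydrogen peroxide made by Pox1, was 2.00-fold higher in htz1D (log2 1.00, SE 0.17, adjusted p = 0.00158) and 2.11-fold higher in the wild type (log2 1.07, SE 0.17, adjusted p = 0.00117). With normexp the CTA1 call was lost in both strains (log2 0.12 in htz1D and 0.78 in the wild type, adjusted p = 0.811 and 0.133). TES1, a peroxisomal thioesterase that splits acyl-CoA, rose by log2 1.09 in htz1D and 1.14 in the wild type. CAT2, the carnitine acetyltransferase that passes acetyl units out of the peroxisome, was 1.67-fold higher in htz1D and at least 1.65-fold higher in the wild type, and with normexp both calls were lost (adjusted p = 0.683 and 0.211).

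The acyl-CoA synthetase genes did not move together. While FAA1 and FAA2 rose, FAA3 fell by log2 1.33 in htz1D and 1.32 in the wild type (SE 0.15 for both, limma adjusted p = 0.000225 and 0.000255). FAA4, which encodes the other main synthetase for imported long-chain fatty acids beside Faa1, fell by log2 1.66 in htz1D and 2.01 in the wild type (SE 0.15 for both, adjusted p = 7.66e-05 and 3.86e-05). FAA4 had 74.9 and 92.3% in htz1D with salt, against 240 and 286% in htz1D without salt. In the wild type it had 74.98 and 87.1% with salt, against 328 and 323% without salt. No treated array of either strain overlapped an untreated one. FAA3 was also lower in htz1D than in WT, by log2 0.57 both without salt (adjusted p = 0.0474) and with salt (adjusted p = 0.0346), where it had 12.05 and 14.6% in htz1D and 17.9 and 21.7% in WT with salt. The FAA3 call without salt was lost without any 1 of the 8 arrays (adjusted p 0.0525 to 0.220), and the call with salt without either untreated wild-type array, the second treated wild-type array or either treated htz1D array (adjusted p 0.0542 to 0.187). The call with salt was also lost with normexp (log2 -0.43, adjusted p = 0.183), after quantile normalization (log2 -0.30, adjusted p = 0.196), in the authors' deposited value table (log2 -0.135, adjusted p = 0.327) and with no filter on dim probes (adjusted p = 0.0547). The call without salt held in the authors' table and with the replicate block, and in none of the other 14 settings.

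Among the 11 regulators on the list, 7 were higher and none lower with salt in htz1D, and 8 were higher and none lower in the wild type. That was 63.6% of the regulators in htz1D, where 29.3% of all genes tested were higher and 58.4% changed. In the wild type it was 72.7%, where 31.2% of all genes tested were higher and 56.9% changed. With normexp 2 regulators passed in htz1D and 6 in the wild type. OAF1 had a log2 change of 0.79 in htz1D and 0.75 in the wild type (SE 0.14, limma adjusted p = 0.00230 and 0.00316), close to that of its partner gene PIP2. ADR1, the activator of peroxisomal and glucose-repressed genes, rose by log2 1.29 in htz1D and 1.57 in the wild type (SE 0.31, adjusted p = 0.00868 and 0.00388), with 45.8 and 67.5% in htz1D with salt and 16.9 and 30.4% in htz1D without salt. ADR1 had 57.5 and 74.3% in WT with salt and 19.96 and 24.4% in WT without salt. Without the second salt-treated htz1D array its htz1D change did not pass (log2 1.01, adjusted p = 0.0568). CAT8, an activator of gluconeogenic genes, rose by log2 2.96 in htz1D (1.96 without the first untreated array, where it was not well above background) and 3.28 in the wild type, and SIP2, a subunit of the Snf1 kinase complex, by log2 1.06 in htz1D and 1.35 in the wild type. The htz1D calls of ADR1, CAT8 and SIP2 were lost with normexp (adjusted p = 0.0820, 0.105 and 0.0529).

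Other partners did not follow. CIT2, the peroxisomal citrate synthase, was lower with salt in the wild type (log2 -0.52, SE 0.16, limma adjusted p = 0.0251) and at log2 -0.08 in htz1D (adjusted p = 0.694). It was higher in htz1D than in WT, by log2 0.73 without salt (adjusted p = 0.0249) and log2 1.18 with salt (adjusted p = 0.00354). The wild-type salt call was lost without either untreated wild-type array or the first treated one (adjusted p 0.0874 to 0.148). The strain call without salt was lost without either untreated wild-type array or the second untreated htz1D array (adjusted p 0.0791 to 0.123), and with normexp (adjusted p = 0.0970) or quantile normalization (0.0608). ANT1, the ATP carrier of the peroxisome, was at log2 0.06 in htz1D and 0.26 in the wild type (adjusted p = 0.791 and 0.246). FAT1, which takes part in uptake and activation of long-chain fatty acids, was at log2 0.47 in htz1D and 0.16 in the wild type (adjusted p = 0.0528 and 0.475). IDP3, the peroxisomal source of NADPH for Sps19, was not tested.

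Among the 16 tested genes of the wider list of matrix enzymes, carriers and acyl handling, 7 were higher and 3 lower with salt in htz1D, and 6 were higher and 3 lower in the wild type. These are 62.5% of the tested list in htz1D, where 58.4% of all genes tested changed, and 56.2% in the wild type, where 56.9% did. The largest change on the list belonged to PNC1, a nicotinamidase known to enter peroxisomes, with log2 2.52 in htz1D and 3.82 in the wild type. PNC1 was higher in htz1D than in WT without salt (log2 1.74, limma adjusted p = 0.000868).

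Peroxisome biogenesis genes, which encode the import machinery and the proteins that set peroxisome number, moved in both directions. Of 29 tested, 12 were higher and 3 lower with salt in htz1D, and 14 were higher and 2 lower in the wild type. These are 51.7% of the list in htz1D, where 58.4% of all genes tested changed, and 55.2% in the wild type, where 56.9% did. The 15 htz1D calls became 6 with normexp and 9 without the second salt-treated htz1D array, and the 16 wild-type calls became 9 with normexp. The median log2 change was 0.30 in htz1D and 0.40 in the wild type. PEX18 and PEX21 encode alternative co-receptors of the import receptor Pex7, whose known cargo includes Pot1, and they moved in opposite directions. PEX18, which entered the test only through salt-treated groups, was at least 1.31-fold higher with salt in htz1D and at least 2.01-fold higher in the wild type. The htz1D call was lost with normexp (log2 0.0386, adjusted p = 0.971) and with the common floor (log2 0.086, adjusted p = 0.671), and the wild-type call with normexp (adjusted p = 0.0659). PEX21 fell by log2 1.37 in htz1D and 1.18 in the wild type (SE 0.19, limma adjusted p = 0.000631 and 0.00145). PEX5, the receptor for the more common peroxisomal signal, rose by log2 1.00 in htz1D and 0.81 in the wild type (SE 0.11, adjusted p = 0.000202 and 0.000638). PEX29, a membrane protein gene that affects peroxisome size and number, rose by log2 1.46 in htz1D and 1.30 in the wild type (SE 0.13).

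Lists around the pathway showed mixed directions. With salt, 58.4% of all genes tested changed in htz1D and 56.9% in the wild type. The shares that passed were 91.7 and 66.7% for lipid storage and lipases, and 30 and 60% for fatty acid synthesis. For the glucose-repressed carbon genes they were 33.3 and 22.2%, below those of all genes. Of 12 genes of lipid storage and lipases, 8 were higher and 3 lower with salt in htz1D, and 7 were higher and 1 lower in the wild type. The triacylglycerol lipase gene TGL4, whose product can release fatty acids from stores, rose by log2 1.56 in htz1D and 1.24 in the wild type (SE 0.13, limma adjusted p = 4.77e-05 and 0.000177). TGL2 rose by log2 1.41 in htz1D and 1.26 in the wild type, and DGA1, which makes triacylglycerol, by log2 0.96 in htz1D and 0.97 in the wild type. Of 10 genes of fatty acid synthesis, 1 was higher and 2 lower in htz1D, and 2 were higher and 4 lower in the wild type, where 3 passed without the first untreated wild-type array. The elongase genes ELO3 and ELO2 were 4.03- and 2.83-fold lower in htz1D and 3.70- and 2.66-fold lower in the wild type. The desaturase gene OLE1 fell in the wild type by log2 3.52 (SE 0.77, adjusted p = 0.00616), with its treated arrays far apart at 216 and 30.1% and the second of them not well above background. Without that array the change was log2 -2.10. Of 9 glucose-repressed carbon genes tested, 3 were higher in htz1D and 2 in the wild type, and ICL1, the isocitrate lyase of the glyoxylate cycle, was higher in both (log2 0.76 in htz1D and 1.20 in the wild type). Of the 9, FBP1, PCK1 and SFC1 entered only through salt-treated groups. With normexp 1 passed in htz1D, where ICL1 did not (log2 0.40, adjusted p = 0.229). In the wild type 1 passed with normexp, after quantile normalization, in the authors' deposited value table and without the first untreated or either treated wild-type array.

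**Figure D4:**
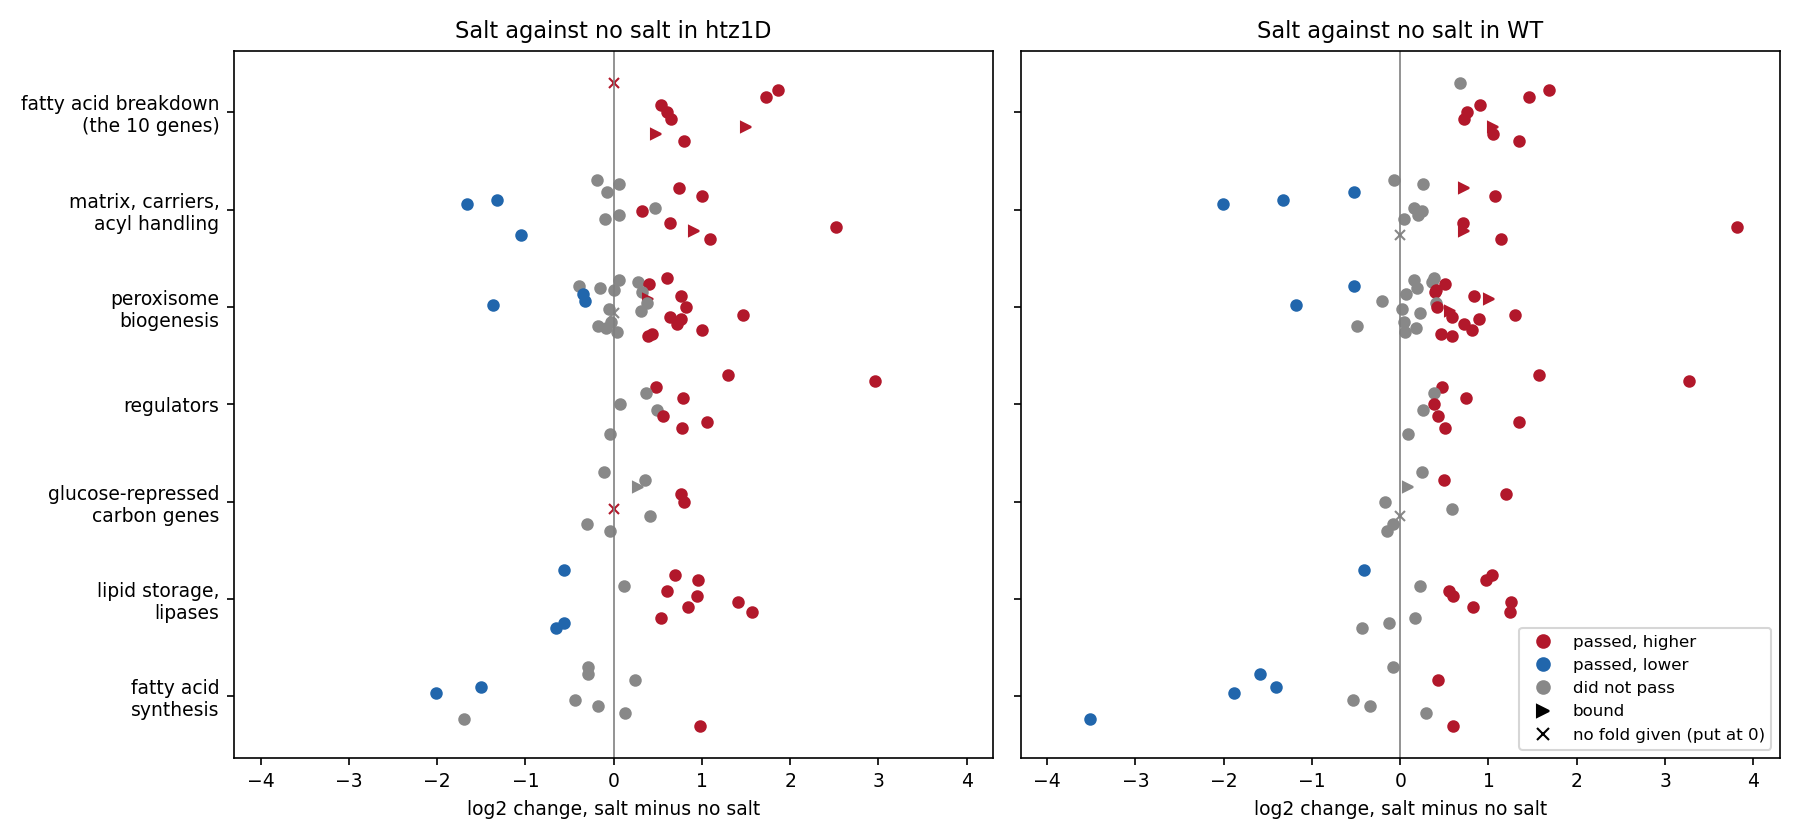
Log2 change with salt of each tested gene on the fixed lists, in htz1D (left) and WT (right), 1 point per gene. Red points were higher, blue points lower and grey points did not pass, triangles are bounds, and crosses have no fold. The fatty acid breakdown genes lie to the right of 0 in both strains, apart from the cross of DCI1 in htz1D, and the other lists hold genes on both sides or, for the regulators, mostly on the right.

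Across the 8 arrays the members did not all share 1 profile, and the following correlations are descriptions over arrays that share the salt contrast. FAA2 and SPS19 were the most alike (Pearson r = 0.99 on log2 values), followed by POT1 and SPS19 (r = 0.97), POT1 and FAA2 (r = 0.96) and PXA1 and DCI1 (r = 0.95). POT1 was not well above background on any untreated array, nor were PXA1 and DCI1 on any untreated htz1D array. The correlations and closest matches of these genes therefore rest in part on levels below background. DCI1 and PIP2 were the least alike (r = 0.19). Over 5393 genes compared, the gene most like FAA2 was PNC1 (r = 0.998), and FAA1 was most like SLA2 (r = 0.998). ECI1 was most like AIM23 (r = 0.997), POT1 like PGC1 (r = 0.994), SPS19 like SDH6 (r = 0.992) and PXA1 like SNF3 (r = 0.990). The closest matches of PIP2, DCI1 and FOX2 were INO1 (r = 0.983), the open reading frame YER076C (r = 0.969) and SRY1 (r = 0.968).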

How the data were processed

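Single-colour arrays of 8 yeast cultures were analysed. Per the file headers, spot intensity values were read with Agilent Feature Extraction 10.7.3.1, background-subtracted and detrended within each array without scaling between arrays, and the design names the sacCer2 build. The authors' deposited value table holds log2 values whose normalization the sources used here do not give. The column medians were 10.55 to 10.57. The submitters' processing notes name limma.

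Left out were control spots and, over all arrays, 86 spots flagged as outliers. The number of saturated spots was 0. Values are log2 processed intensity minus the array's 75th percentile, averaged over the 2 spots of a probe. The brightest probe stood for a gene, and each member had 1 probe. A gene was tested if a probe was well above background, on all spots, on both arrays of 1 group. In R 4.3.3, limma 3.58.1 fitted 4 group means to 8 arrays (4 residual degrees of freedom), with Benjamini-Hochberg adjustment over 5394 genes in each of 5 comparisons. Where neither array of a group was well above background, only a bound is given: the bright group's mean against the dim group's mean of whichever is higher on each array, the dim probe itself or the lowest probe that is well above background. An adjusted p printed beside a bound is that of the fitted change, which includes levels below background. The procedure was tested on simulated data.

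The members and gene lists were chosen with earlier results of these data known. The genes named are the 10 members, 12 partners by role, up to 4 called genes with the largest change per list and comparison, and the gene most like each member. Neighbours were chosen after their values were seen. ORF names were matched to the RefSeq gene table of the R64 assembly, which served for naming and for finding neighbours but for no coordinates, as its build differs: 5748 probes matched and 508 did not. Sequences were not used here.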

Additional observations from a re-analysis of the deposited data

Results flagged for a closer look

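No member's salt response differed between the strains after adjustment. Among the other listed genes, 3 did, by the limma interaction test. They were 1 of the 16 tested on the list of matrix enzymes, carriers and acyl handling, and 2 of 7 on the general stress list. Of all genes tested, 1.00% passed, 0.890% with a negative interaction. PNC1, the nicotinamidase gene whose profile was closest to that of FAA2, rose with salt by log2 2.52 in htz1D and 3.82 in WT, a difference of -1.30 (adjusted p = 0.0441). HSP12, on the general stress list, rose by log2 5.91 in htz1D and 7.60 in WT, a difference of -1.69 (adjusted p = 0.0368). GSY1, a glycogen synthase gene on the same list, rose by log2 4.58 in htz1D and 5.69 in WT, a difference of -1.11 (adjusted p = 0.0450). These calls were close to the threshold: of the 16 alternative settings, 4 kept the call for PNC1, 6 for HSP12 and 5 for GSY1. The difference lay between -1.43 and -1.14 for PNC1, between -1.86 and -1.09 for HSP12 and between -1.26 and -0.895 for GSY1 over those settings. Without salt the mean levels of PNC1, HSP12 and GSY1 were 540, 52.4 and 22.6% in htz1D, above 162, 11.96 and 10.9% in WT. With salt they were 3082, 3151 and 540% in htz1D and 2285, 2328 and 565% in WT, so only GSY1 was lower in htz1D. With normexp none of the 3 interactions passed (adjusted p 0.264 to 0.373). Without 1 array PNC1 passed in 0 of 8 fits, and HSP12 and GSY1 passed in 1 of 8, the one without the first salt-treated wild-type array.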

How the results depend on the processing

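The cause was not tested for any change listed here, except where an array was left out and the design had fewer samples. With salt in htz1D, 2 members passed with normexp background correction on the median signal, 5 with a common floor for dim values, and 7 to 8 without 1 array, against 9. In WT 4 passed with normexp, 6 after quantile normalization, 7 with the authors' deposited value table, and 6 to 8 without 1 array, against 8. For htz1D against WT without salt, 0 passed with normexp, 2 after quantile normalization, 0 with the authors' deposited value table, 1 with no filter, 2 with the common floor and 1 to 3 without 1 array, against 4. With salt, 0 passed with normexp, 0 with quantile normalization, 0 with the authors' table, and 0 to 1 without 1 array, against 1. The interaction called 0 members under each of the 16 alternatives.

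Normexp, chosen after seeing the data because the planned mean signal was not used here, worked from local backgrounds of 40 to 42.5 units, below the negative control spots' 108 to 123.5. With it, the htz1D salt change was log2 -0.33 for FAA2, -0.28 for PXA1, -0.56 for DCI1, -0.14 for PXA2, -0.25 for CAT2 and -0.62 for PCK1, none of which passed, while CIT2 was at 0.0093. In htz1D against WT without salt it gave 0.36 for FOX2, 0.54 for PXA1, 0.21 for ECI1, 0.55 for DCI1 and 0.37 for PCK1, and FAA2 was at -0.064 with salt. Its interactions were -1.03 for PXA1, -0.36 for ECI1 and -0.97 for DCI1. Its genome-wide counts were 2181 and 2067 genes for salt in htz1D and WT, and 185, 324 and 1 for the other comparisons. It split the salt calls in htz1D into 776 higher and 1405 lower (1582 and 1567 in the reported fit) and the strain calls without salt into 162 higher and 23 lower (397 and 341), with a median over all genes of log2 -0.18 and 0.11.

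Quantile normalization gave, for htz1D against WT with salt, log2 0.058 for FOX2 and 0.22 for SPS19, interactions of 0.078 for FOX2, 0.0535 for POT1 and 0.10 for PIP2, and 0.023 for salt in htz1D for CIT2. The authors' deposited table gave 0.025 for FOX2 and 0.09 for SPS19 with salt, interactions of 0.095 for FOX2, 0.075 for POT1 and 0.075 for PIP2, and 0.015 for CIT2. Its salt changes were smaller, for example 0.81 in htz1D and 0.735 in WT for POT1. With the common floor, chosen after seeing the data, interactions were 0.31 for POT1, -0.68 for PXA1 and -0.17 for DCI1. With the lower spot of each probe, also chosen later, FOX2 was at 0.0505 and POT1 at -0.25 without salt, and the POT1 interaction was 0.71.

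Leaving out 1 array turned the sign of the following uncalled values, given by their ranges. For htz1D against WT without salt these were FOX2 (-0.15 to 0.11) and FAA1 (-0.17 to 0.23), and with salt FOX2 (-0.49 to 0.14), FAA2 (-0.0125 to 0.085) and SPS19 (-0.12 to 0.015). The interactions of FOX2 (-0.47 to 0.16), POT1 (-0.99 to 0.28) and PIP2 (-0.45 to 0.31) also turned. So did the salt changes of ANT1 (-0.15 to 0.27) and CIT2 (-0.23 to 0.068) in htz1D and of FAT1 in WT (-0.048 to 0.36).

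With the replicate number as a block, 9, 8, 5, 1 and 0 members passed in the 5 comparisons, and 1395, 1829 and 141 genes for the strain comparisons and the interaction against 738, 1183 and 54. Same-numbered arrays' deviations correlated at r = 0.18 to 0.42, and the labels do not say what a number shares. The interaction called 14 genes with no filter, 19 with the authors' table, and 23 with the common floor. Counts without 1 array were 271 to 663, 438 to 1435 and 4 to 102 for the same 3 comparisons. Dim signals limit POX1, POT1, PXA1 and DCI1, and also FAA2 in WT without salt, where 1 array was well above background and the other was not.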

Other observations

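The genes next to the members on the chromosome, by the gene order of the R64 assembly, were counted in the same comparisons. Of 20 neighbours, 14 were tested, and 2 were higher and 6 lower with salt in htz1D, against 29.3% higher and 29.1% lower among all genes tested. In WT 4 were higher and 5 lower, against 31.2% higher and 25.7% lower among all genes tested. The neighbours named here were chosen after their values were seen. BNR1, a formin gene that lies upstream of POT1 on the opposite strand, was at log2 -0.91 in htz1D and -0.46 in WT with salt (limma adjusted p = 0.000335 and 0.00968), while POT1 was higher. LAS17, an actin assembly gene upstream of DCI1 on the opposite strand, was at log2 1.33 in htz1D and 0.98 in WT (adjusted p = 8.77e-05 and 0.000480). NOP53, a ribosome assembly gene downstream of PXA1 on the opposite strand, was at log2 -2.12 in htz1D and -1.53 in WT (adjusted p = 7.69e-05 and 0.000465). SYC1, downstream of DCI1 on the same strand, was lower in htz1D than in WT without salt (log2 -1.11, adjusted p = 0.00558) and with salt (log2 -1.16, adjusted p = 0.00321).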
